A study of Mus musculus with 23 samples.

Results

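The semaphorin family and its receptors were described in 8 ChIP-seq peak lists from the embryonic mouse cerebral cortex. The genes were taken by name rather than by a measured value, with earlier results of these data known: 20 semaphorins, 9 plexins and 2 neuropilins, 31 of the 21938 protein-coding genes of the GENCODE annotation. Cells came from Tg(Ebf2-EGFP)FB58Gsat embryos, in which a transgene with the regulatory sequence of Ebf2 drives EGFP, and all groups carried it. They were sorted by EGFP fluorescence. Ebf2-EGFP+ cells were taken at 3 embryonic stages, E11.5, E13.5 and lastly E15.5, and Ebf2-EGFP- cells only at the first. As the study describes them from earlier work, Ebf2-EGFP+ cells were mainly preplate neurons (subplate and Cajal-Retzius, CR) at E11.5 and mostly CR neurons by E15.5, so that stage and cell makeup changed together and cannot be told apart. Ebf2-EGFP- cells were mostly progenitors. The 23 samples were 15 ChIP libraries for H3K27ac or H3K27me3 in 8 groups and 8 input libraries in 4 groups. Each ChIP group had 2 libraries, except H3K27ac in Ebf2-EGFP- cells, which had 1, and each gave 1 peak list.

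Semaphorins are secreted or membrane-bound guidance cues, and plexins are their signalling receptors, which act on small GTPases and through them on the cytoskeleton. Most secreted class 3 semaphorins reach plexins through the co-receptors Nrp1 and Nrp2, whereas the membrane-bound classes bind plexins directly. In the developing cortex these proteins guide axons, dendrites and migrating neurons, CR neurons among them. Acetylation of lysine 27 of histone H3 (H3K27ac) is typical of promoters and enhancers in use, and its trimethylation (H3K27me3) is the product of Polycomb and typical of silenced genes.

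A gene was counted as marked where at least 1 bp of a peak lay within 5 kb of its transcription start site (TSS), the 5′ end of the gene. The presence of a peak is not a level of the mark or of RNA. Since each group had a single list, no spread between replicates and no test of a difference between lists could be had. The 95% intervals given are exact Clopper-Pearson intervals that cover counting over genes only, and the read depth behind a peak is unknown.

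The lists differed widely in length. H3K27ac had 1386 peaks in Ebf2-EGFP- cells and 37055, 102881 and 25793 in Ebf2-EGFP+ cells, from the earliest stage to the latest. H3K27me3 had 48963 peaks in Ebf2-EGFP- cells and 6387, 6721 and 1438 in Ebf2-EGFP+ cells. None of 6 progenitor markers (Sox2, Pax6, Hes5, Hes1, Nes and Vim) had an H3K27ac peak at the TSS in the Ebf2-EGFP- list, against 4.17% of all genes. An H3K27me3 peak of these cells was at 4 of them, against 48.2% of all genes. So few genes were marked in the Ebf2-EGFP- H3K27ac list that the absence of these markers neither bears out the label nor decides against it. Of 7 preplate and CR markers, 3 had H3K27ac in that list (Reln, Nhlh2 and Tbr1), against 4.17% of all genes, and 6, 7 and 5 did in the Ebf2-EGFP+ lists. H3K27me3 of Ebf2-EGFP- cells was at 5 of these 7, against 48.2% of all genes. What these markers say of the cells behind the Ebf2-EGFP- lists was not tested. Of 4 pan-neuronal markers 0 had H3K27ac in the Ebf2-EGFP- list and 3, 2 and 3 in the Ebf2-EGFP+ lists. Markers of other cells also carried H3K27ac in Ebf2-EGFP+ cells, in stage order: 5, 6 and 4 of the 6 progenitor markers, 2, 3 and 2 of 4 GABAergic interneuron, 1, 3 and 1 of 5 endothelial, 1, 2 and 2 of 3 microglial, 2, 3 and 2 of 4 meningeal, and 0, 1 and 0 of 3 erythroid markers. Of all protein-coding genes, 49.9%, 60.9% and 52.3% had H3K27ac at the TSS in the 3 Ebf2-EGFP+ lists. Marker counts near these shares do not tell other cells from genes in general. The part of other cells in the results below was not tested.

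Several kinds of site carry the description that follows, and some of their sequences are shown here, on the strand of the gene, from GRCm38. The first are sites near a TSS where peaks of both marks lay on the same bases. At Plxnb2, whose product is a receptor of class 4 semaphorins, an intronic H3K27me3 peak of 268 bp in Ebf2-EGFP- cells (chr15:89180290-89180557, minus strand) lay wholly inside an H3K27ac peak at each of the 3 Ebf2-EGFP+ stages. At Sema3b, a secreted ligand, an H3K27me3 peak of 161 bp in Ebf2-EGFP- cells (chr9:107612415-107612575, minus strand), centred at -3.27 kb from the TSS, lay wholly inside the H3K27ac peaks of Ebf2-EGFP+ cells at E11.5 and E15.5. At Sema6b, a transmembrane ligand of Plxna4, an H3K27me3 peak of 151 bp in Ebf2-EGFP+ cells at E13.5 (chr17:56138453-56138603, minus strand) lay wholly inside an H3K27ac peak of the same cells. The second kind is Sema3d, the member with only H3K27ac near its TSS at E11.5 and only H3K27me3 there at E13.5 in Ebf2-EGFP+ cells. These peaks were at separate intronic places: H3K27ac on chr5:12385052-12385193 and H3K27me3 on chr5:12383819-12383934, plus strand. Capitals mark CpG sites, which are dense at many promoters. There were 24, 6, 5, 1 and 5 of them in the order printed.
Plxnb2 H3K27me3 E11.5 EGFP-: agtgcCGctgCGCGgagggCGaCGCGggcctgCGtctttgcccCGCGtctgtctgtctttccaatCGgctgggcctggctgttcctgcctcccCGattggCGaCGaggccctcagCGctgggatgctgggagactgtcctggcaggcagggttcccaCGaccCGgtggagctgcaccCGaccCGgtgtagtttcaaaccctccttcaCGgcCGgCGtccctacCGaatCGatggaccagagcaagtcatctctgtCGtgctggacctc
Sema3b H3K27me3 E11.5 EGFP-: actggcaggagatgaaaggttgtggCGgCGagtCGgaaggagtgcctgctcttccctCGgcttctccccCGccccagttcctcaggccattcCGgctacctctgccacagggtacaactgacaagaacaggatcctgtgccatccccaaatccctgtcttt
Sema6b H3K27me3 E13.5 EGFP+: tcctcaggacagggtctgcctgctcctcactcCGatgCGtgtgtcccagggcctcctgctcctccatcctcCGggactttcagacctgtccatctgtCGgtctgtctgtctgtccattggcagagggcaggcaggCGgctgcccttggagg
Sema3d H3K27ac E11.5 EGFP+: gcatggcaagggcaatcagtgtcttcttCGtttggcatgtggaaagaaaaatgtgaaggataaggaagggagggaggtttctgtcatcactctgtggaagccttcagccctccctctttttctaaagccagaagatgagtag
Sema3d H3K27me3 E13.5 EGFP+: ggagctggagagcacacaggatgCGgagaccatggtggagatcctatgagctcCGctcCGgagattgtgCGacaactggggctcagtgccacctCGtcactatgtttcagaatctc

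The third kind is the set of H3K27me3 peaks of Nrp1 in Ebf2-EGFP+ cells at E15.5, which followed its exons. Exon blocks here are the merged exons of all annotated transcripts, numbered from the 5′ end, and 3 coding blocks on chromosome 8, plus strand, are printed whole with the peak in capitals. Block 7 (chr8:128434209-128434375) has 167 bp, of which the peak took 128, block 8 (chr8:128457857-128458012) has 156 bp with a peak of 126, and block 11 (chr8:128476150-128476294) has 145 bp with a peak of 124. In each, the peak began and ended inside the exon.
Nrp1 exon block 7: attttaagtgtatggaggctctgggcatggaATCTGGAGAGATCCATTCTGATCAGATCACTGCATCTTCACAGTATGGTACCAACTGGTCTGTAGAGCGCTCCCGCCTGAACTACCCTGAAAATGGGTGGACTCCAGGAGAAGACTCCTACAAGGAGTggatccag
Nrp1 exon block 8: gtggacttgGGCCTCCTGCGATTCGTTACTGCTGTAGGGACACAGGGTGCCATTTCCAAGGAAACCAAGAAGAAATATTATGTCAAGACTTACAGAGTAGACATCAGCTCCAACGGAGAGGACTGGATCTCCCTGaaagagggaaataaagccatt
Nrp1 exon block 11: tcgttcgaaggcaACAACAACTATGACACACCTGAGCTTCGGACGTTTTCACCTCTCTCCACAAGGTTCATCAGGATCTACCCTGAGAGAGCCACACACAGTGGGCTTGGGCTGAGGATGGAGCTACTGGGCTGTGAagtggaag
The last kind, intronic peaks of class 3 semaphorins that lay in repeats, is described with the gene bodies and is not printed.

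The first question was which mark the TSS of these genes carried in each cell group. No member had an H3K27ac peak in Ebf2-EGFP- cells, against 4.17% of all protein-coding genes and 5.2% of those at least as long as the shortest member (9.71 kb), and 0 of 31 allows a share of up to 11.2%. In Ebf2-EGFP+ cells 24 members had one at E11.5 (77.4%, interval 58.9 to 90.4), 26 at E13.5 (83.9%, 66.3 to 94.5) and 27 at E15.5 (87.1%, 70.2 to 96.4). The same counts over all protein-coding genes came to 49.9%, 60.9% and 52.3%, and over the 14325 long genes to 54.2%, 63.5% and 58.7%. All 3 intervals lay above both background shares. Not every choice of peaks kept this. With peaks of at least 300 bp the members came to 45.2% at E11.5 (interval 27.3 to 64.0) and 38.7% at E13.5 (21.9 to 57.8), against 28.9% and 23% of all genes, so that only E15.5 stayed above (80.6%, 62.5 to 92.5, against 42.6%). Without peaks wholly in exons E13.5 was at 64.5% (45.4 to 80.8, against 54.3%), and in a window of 1 kb E11.5 was at 61.3% (42.2 to 78.2), above the 40.6% of all genes but not the 46.7% of the long ones.

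H3K27me3 went the other way. It had a peak at the TSS of 23 members in Ebf2-EGFP- cells (74.2%, interval 55.4 to 88.1), against 48.2% of all genes and 51.1% of the long ones. In a window of 1 kb it was at 58.1% (39.1 to 75.5), above the 36.2% of all genes but not the 40.9% of the long ones. In Ebf2-EGFP+ cells 4, 5 and 1 members had one by stage, against 4.92%, 9.31% and 1.06% of all genes and 4.43%, 8.89% and 0.991% of the long ones. These intervals, 3.63 to 29.8%, 5.45 to 33.7% and 0.0816 to 16.7%, included the background. With any annotated start of a gene in place of its 5′ end the first and second did not: 8 members had H3K27me3 at E11.5 (25.8%, 11.9 to 44.6, against 9.27% of all genes) and 10 at E13.5 (32.3%, 16.7 to 51.4, against 13.1%). In a window of 1 kb 3 did at E11.5 (9.68%, 2.04 to 25.8, against 1.89%). The opposite lengths of the lists moved with this contrast: where each list was cut to its widest peaks, as many as the shortest list of the mark held, H3K27ac was at 0, 5, 2 and 4 members (4.17%, 6.24%, 1.39% and 6.87% of all genes) and H3K27me3 at 2, 1, 1 and 1 (2.98%, 1.34%, 2.68% and 1.06%), in the order Ebf2-EGFP- and then the 3 stages. The intervals of all these shares included the background.

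At E11.5, the stage with both cell groups, H3K27ac was at 24 members in Ebf2-EGFP+ cells only (46% of all genes), at 0 in both groups (3.91%), at 0 in Ebf2-EGFP- cells only (0.26%) and at 7 in neither (49.8%). H3K27me3 was at 20 members in Ebf2-EGFP- cells only (44.7%), at 3 in both (3.48%), Sema3b, Sema3g and Sema6b, at 1 in Ebf2-EGFP+ cells only (1.44%), Sema6c, and at 7 in neither (50.4%).

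**Figure D1:**
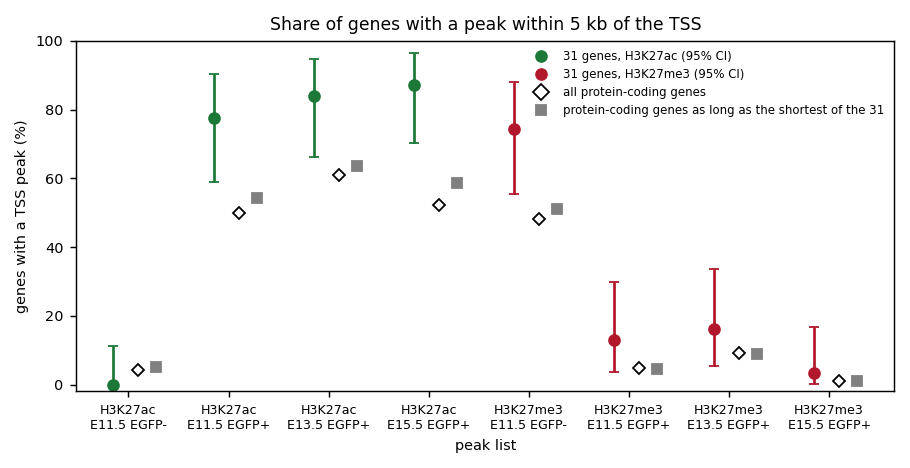
Share of genes (%, y axis) with a peak within 5 kb of the TSS in each of the 8 lists (x axis): circles are the 31 genes with their exact 95% interval, diamonds all 21938 protein-coding genes and squares the 14325 as long as the shortest member. H3K27ac in the 3 Ebf2-EGFP+ lists and H3K27me3 in the Ebf2-EGFP- list sit above both backgrounds with their whole interval, and the other lists do not.

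Put together, 23 members were H3K27me3 only in Ebf2-EGFP- cells (44.7% of all genes were) and none had both marks (3.42%). The other 8, Sema3a, Sema3c, Sema3e, Sema4a, Sema4d, Sema6a, Sema6c and Nrp1, had neither. The study itself reported both marks at the majority of the starts of its detected genes in Ebf2-EGFP- cells, and H3K27me3 alone at few. The shares over all genes here differ from that report, and the reason was not tested. In Ebf2-EGFP+ cells H3K27ac only was the state of 20, 22 and 26 members by stage (46.4%, 52.5% and 51.5% of all genes), and 4, 4 and 1 had both marks (3.56%, 8.39% and 0.752%). Neither mark was found at 7, 4 and 4 members, against 48.7%, 38.1% and 47.4% of all genes. H3K27me3 alone was the state of 0, 1 and 0 members in these cells (1.37%, 0.925% and 0.305% of all genes), the 1 being Sema3d.

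**Figure D2:**
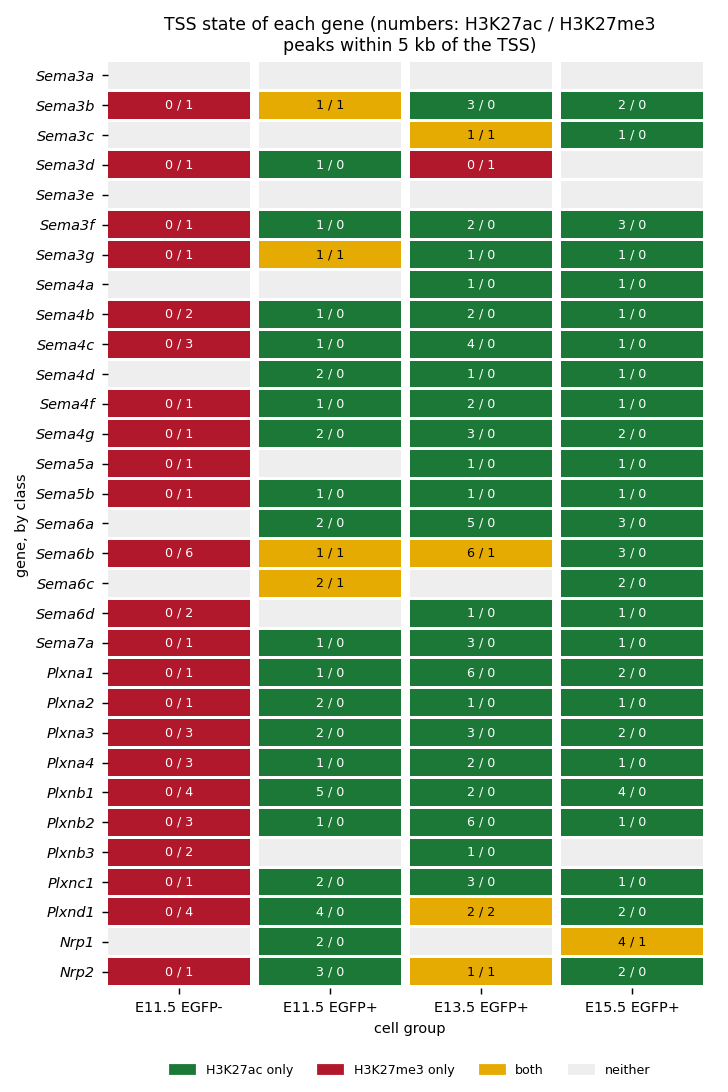
State of the TSS of each of the 31 genes (rows, by class) in the 4 cell groups (columns), with the number of H3K27ac and H3K27me3 peaks within 5 kb. The first column holds 23 genes with H3K27me3 only and none with H3K27ac; the last holds 26 with H3K27ac only, 1 with both and 4 with neither.

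Of the 23 members with H3K27me3 at the TSS in Ebf2-EGFP- cells, 20, 22 and 21 carried H3K27ac there in Ebf2-EGFP+ cells by stage (87.0%, 95.7% and 91.3%). All genes with that mark gave 72.3%, 82.2% and 73%. Of the 8 members without it, 4, 4 and 6 had H3K27ac, where all such genes gave 29.1%, 41.2% and 33%. The 3 without H3K27ac at E11.5 were Sema5a, Sema6d and Plxnb3. The single exception at E13.5 was Sema3d, and at E15.5 the exceptions were Sema3d and Plxnb3.

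The peaks of the 2 marks often lay on the same bases, at members about as often as at all genes with both. Peaks of H3K27me3 in Ebf2-EGFP- cells and of H3K27ac in Ebf2-EGFP+ cells had at least 1 bp in common at 14 of 20 members at E11.5 (70% against 75.1% of all genes with both), 16 of 22 at E13.5 (72.7% against 67.8%) and 18 of 21 at E15.5 (85.7% against 81%). The Plxnb2 and Sema3b sequences above are such sites. Between stages, H3K27ac peaks overlapped at 16 of 21 members from E11.5 to E13.5, 23 of 25 from E13.5 to E15.5 and 22 of 23 from E11.5 to E15.5, where all genes gave 71.8%, 77.9% and 88.8%. These comparisons share lists with each other.

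Most TSS peaks of the members lay downstream of the start, within the gene. The start used was the 5′ end of the gene, so any other annotated start lies downstream of it. The same was not counted over all genes. For H3K27ac in Ebf2-EGFP+ cells, 33 of 41 peaks at E11.5, 45 of 64 at E13.5 and 36 of 46 at E15.5 had their centre downstream, and 24, 32 and 31 lay within 1 kb. For H3K27me3 in Ebf2-EGFP- cells, 36 of 45 were downstream. All of these peaks lay nearer to the member's TSS than to that of another protein-coding gene, also at Sema3g, whose neighbour Nisch starts 0.914 kb away. Over marked members the median width of the widest H3K27ac TSS peak was 374, 288.5 and 658 bp by stage, against 342, 255 and 582 bp over all marked genes.

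**Figure D3:**
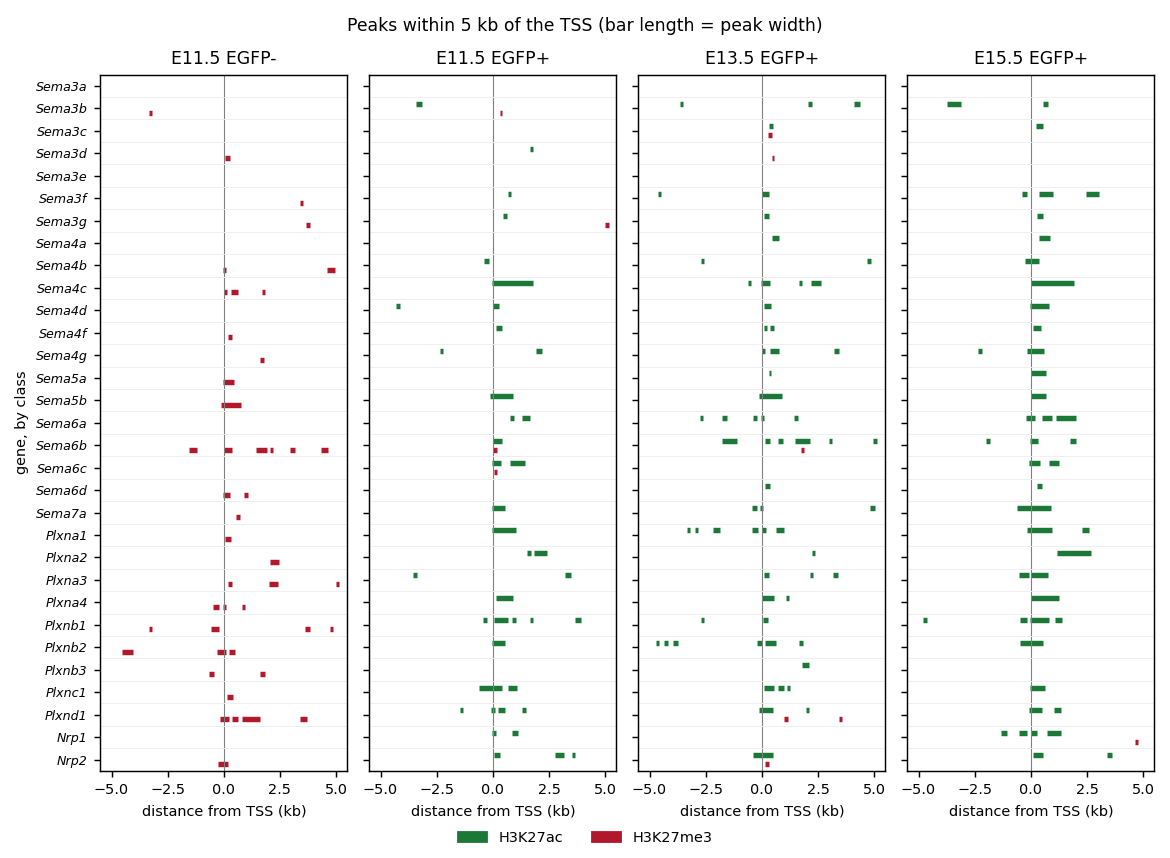
Peaks within 5 kb of the TSS of each gene (rows) by distance from the TSS in kb (x axis, positive downstream), drawn to width, in the 4 cell groups. H3K27me3 bars fill the Ebf2-EGFP- panel (45 peaks), H3K27ac bars the Ebf2-EGFP+ panels (41, 64 and 46 peaks), mostly just downstream of the start.

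Among the ligands, 4 of the 7 secreted class 3 semaphorins had H3K27ac at the TSS at each Ebf2-EGFP+ stage. That is near the 49.9%, 60.9% and 52.3% of all genes. H3K27me3 in Ebf2-EGFP- cells was also at 4 of them, against 48.2% of all genes. The classes hold few genes, and differences between them were not tested. Sema3b, Sema3f and Sema3g had H3K27ac at all 3 stages, and of these Sema3b and Sema3g also had H3K27me3 in Ebf2-EGFP+ cells at E11.5. At Sema3b the H3K27me3 peak at E11.5 (116 bp at 0.37 kb) and the H3K27ac peak (256 bp at -3.28 kb) lay apart. Later Sema3b had 3 H3K27ac peaks of up to 272 bp at E13.5, the nearest at 2.16 kb, and 2 of up to 598 bp at E15.5. At Sema3g the H3K27ac TSS peak of 189 bp at E11.5 was at 0.53 kb. The H3K27me3 peak of 175 bp was centred at 5.09 kb, at the edge of the window. It shared 115 bp with another H3K27ac peak of the same cells, centred at 5.13 kb and outside the window. The H3K27me3 TSS peak of Sema3g in Ebf2-EGFP- cells, of 166 bp, was at 3.74 kb. The later H3K27ac TSS peaks of Sema3g were of 228 bp at E13.5 and 240 bp at E15.5.

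Sema3a, a repellent of cortical axons that acts through Nrp1, and Sema3e, a ligand that binds Plxnd1 without a neuropilin, had no TSS peak of either mark in any list. They were the 2 members without H3K27ac at any Ebf2-EGFP+ stage, a state of 25.6% of all genes. Sema3a (chr5:13125414-13602565, plus strand, 477 kb) had 2 peaks in the whole gene, both H3K27ac and intronic: 260 bp at 327 kb from the TSS at E13.5 and 224 bp at 169 kb at E15.5. Sema3e (chr5:14025276-14256689, plus strand) had 2 H3K27ac peaks at E13.5, at 141 and 155 kb, and 1 H3K27me3 peak in Ebf2-EGFP- cells at 155 kb, all 3 of them wholly in repeats.

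Sema3c and Sema3d also lie on chromosome 5. Sema3c (chr5:17574281-17730268, plus strand) had no TSS peak at E11.5 in either cell group. At E13.5 it had 1 H3K27ac TSS peak of 156 bp and 1 H3K27me3 TSS peak of 217 bp that overlapped about 0.4 kb downstream. At E15.5 it had an H3K27ac peak of 321 bp alone at 0.386 kb. At its TSS, Sema3d (chr5:12383385-12588948, plus strand) had H3K27me3 in Ebf2-EGFP- cells (239 bp at 0.171 kb). In Ebf2-EGFP+ cells it had H3K27ac there at E11.5 (142 bp at 1.74 kb), H3K27me3 at E13.5 (116 bp at 0.49 kb) and no TSS peak at E15.5. The TSS peaks of Ebf2-EGFP+ cells are the 2 Sema3d sequences above, both narrower than the median peaks of their lists, 212 and 146 bp.

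The 6 class 4 semaphorins, transmembrane ligands of B plexins, had H3K27ac at 5, 6 and 6 TSS by stage (49.9%, 60.9% and 52.3% of all genes). They had no H3K27me3 TSS peak in any Ebf2-EGFP+ list, where few genes did (4.92%, 9.31% and 1.06% of all genes). Sema4c, a ligand of Plxnb2, had the widest H3K27ac TSS peaks of all members at E11.5 (1838 bp) and E15.5 (1903 bp); at E13.5 its 4 peaks reached at most 421 bp. Sema4d, a ligand of Plxnb1 and Plxnb2, had no TSS peak of either mark in Ebf2-EGFP- cells and H3K27ac at the TSS at every Ebf2-EGFP+ stage. Its introns held 5 H3K27me3 peaks in Ebf2-EGFP- cells. Sema4a (chr3:88435959-88461182, minus strand) was without a TSS peak at E11.5 in both cell groups and had H3K27ac at E13.5 (313 bp at 0.596 kb) and E15.5 (457 bp at 0.613 kb). Its exons held H3K27me3 in Ebf2-EGFP- cells, with 4 body peaks.

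Sema5a and Sema5b, transmembrane guidance cues, differed at E11.5. Sema5b had 1 H3K27ac TSS peak at every Ebf2-EGFP+ stage, of 1006, 987 and 693 bp, and an H3K27me3 peak of 862 bp in Ebf2-EGFP- cells, the widest H3K27me3 TSS peak of any member. Sema5a (chr15:32244810-32696341, plus strand) had H3K27me3 of 496 bp in Ebf2-EGFP- cells, no TSS peak in Ebf2-EGFP+ cells at E11.5, and H3K27ac at E13.5 (131 bp) and E15.5 (675 bp), both within 0.4 kb of the TSS.

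Of the 4 class 6 semaphorins, ligands of A plexins, H3K27ac was at 3, 3 and 4 by stage (49.9%, 60.9% and 52.3% of all genes). Sema6a had H3K27ac at all 3 stages (2, 5 and 3 TSS peaks) and no H3K27me3 there. Sema6b (chr17:56123085-56140343, minus strand) had 6 H3K27me3 TSS peaks in Ebf2-EGFP- cells, more than any other member. It was also the only member with H3K27me3 at 2 Ebf2-EGFP+ stages, 1 peak at E11.5 (210 bp at 0.0985 kb) and 1 at E13.5 (151 bp at 1.82 kb, the sequence above), each overlapping one of the 1 and 6 H3K27ac peaks of the same cells. The widest H3K27ac peaks of Sema6b were 399, 675 and 338 bp by stage, the last among 3 peaks. Across all genes 0.807% had H3K27me3 at exactly those 2 stages. Sema6c (chr3:95160457-95174024, plus strand) had both marks on the same bases at E11.5, 2 H3K27ac peaks of up to 633 bp and 1 H3K27me3 peak of 116 bp, no TSS peak at E13.5, and 2 H3K27ac peaks of up to 531 bp at E15.5. The E13.5 list was the longest of all, and it held 4 exon-touching peaks farther inside Sema6c. Sema6d (chr2:124089969-124667770, plus strand) was the longest member, at 578 kb. It had 2 H3K27me3 TSS peaks in Ebf2-EGFP- cells and no TSS peak of either mark in Ebf2-EGFP+ cells at E11.5. Later it had 1 H3K27ac TSS peak at E13.5 (225 bp) and 1 at E15.5 (242 bp). Sema7a, the GPI-anchored ligand of Plxnc1, had H3K27ac peaks at all 3 stages, of up to 581, 240 and 1529 bp.

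All 9 plexins had H3K27me3 at the TSS in Ebf2-EGFP- cells (48.2% of all genes). In Ebf2-EGFP+ cells 8, 9 and 8 had H3K27ac by stage (49.9%, 60.9% and 52.3% of all genes). The 4 A plexins, receptors that signal with neuropilins for class 3 and directly for class 6 ligands, had H3K27ac alone at the TSS at every stage. Farther inside Plxna1, Plxna2 and Plxna4 these cells also had H3K27me3 peaks. Plxna4 (chr6:32144268-32588192, minus strand), a receptor of Sema6a and Sema6b, had 3 H3K27me3 TSS peaks in Ebf2-EGFP- cells, the widest of 275 bp, and 1, 2 and 1 H3K27ac peaks by stage, the widest of 787, 565 and 1231 bp. At Plxna2, a receptor of Sema6a, the H3K27ac peaks lay 1.6 to 2.28 kb downstream of the annotated start, and the H3K27me3 peak of Ebf2-EGFP- cells was at 2.26 kb. Plxnb1 had 5, 2 and 4 H3K27ac TSS peaks by stage and Plxnb2 had 1, 6 and 1. Plxnb3 (chrX:73757090-73772514, plus strand) was the plexin that stood apart, with 2 H3K27me3 TSS peaks in Ebf2-EGFP- cells. It had H3K27ac at the TSS only at E13.5, in 1 peak of 286 bp at 1.94 kb that lay wholly in an exon. Plxnc1 had H3K27ac alone at all stages. Plxnd1 (chr6:115954811-115995005, minus strand), the receptor of Sema3e, had 4 H3K27me3 TSS peaks in Ebf2-EGFP- cells and 4, 2 and 2 H3K27ac peaks by stage. At E13.5 it also had 2 H3K27me3 TSS peaks, of 178 bp at 1.05 kb and 132 bp at 3.49 kb, which did not overlap its H3K27ac peaks.

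The co-receptors differed from each other. Nrp2 (chr1:62703285-62818695, plus strand), which binds Sema3f, had 1 H3K27me3 TSS peak of 432 bp in Ebf2-EGFP- cells and 3, 1 and 2 H3K27ac peaks by stage, the widest of 442, 887 and 428 bp. At E13.5 it also had an H3K27me3 peak of 169 bp at 0.238 kb, inside the H3K27ac peak and wholly in an exon. Nrp1 (chr8:128358604-128503363, plus strand), which binds Sema3a, had no TSS peak of either mark in Ebf2-EGFP- cells or at E13.5. It had 2 H3K27ac TSS peaks at E11.5, of 195 and 261 bp, and 4 at E15.5, of 251, 336, 240 and 636 bp, centred between -1.21 and 1.03 kb.

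The H3K27me3 signal of Nrp1 at E15.5 needs care. Nrp1 is 145 kb long, in 18 exon blocks that make up 6.76% of it. Its 9 H3K27me3 peaks in that list each lay wholly inside an exon block, in 9 different blocks from 4.68 to 144 kb, and none touched an intron. The call at the TSS rests on the first of these, 134 bp at 4.68 kb in block 3, so that Nrp1 was not marked by H3K27me3 once peaks wholly in exons were left out. Of the 17 genes with 4 or more body peaks in that list, 8 had every peak touching an exon and 2, Nrp1 and Zeb1, had every peak base exonic. Zeb1 was looked up after these values were seen.

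H3K27ac at Nrp1 had exon peaks as well. In Ebf2-EGFP- cells both H3K27ac peaks of the gene, 175 and 192 bp, lay wholly in blocks 10 and 15 and overlapped the E15.5 H3K27me3 peaks there. At E15.5 the 4 H3K27ac peaks outside the TSS window all touched exons and all overlapped those H3K27me3 peaks. One of them, 332 bp, was as long as block 10 and shifted from it by 5 bp. At E13.5, 2 of 5 body peaks lay in exons and overlapped the H3K27me3 peaks, and 3 were intronic. The TSS peaks at E11.5 and E15.5 were not of this kind: none lay wholly in exons, and those at E15.5 lay upstream of the TSS or ran into introns. What gave the exon peaks was not tested.

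**Figure D4:**
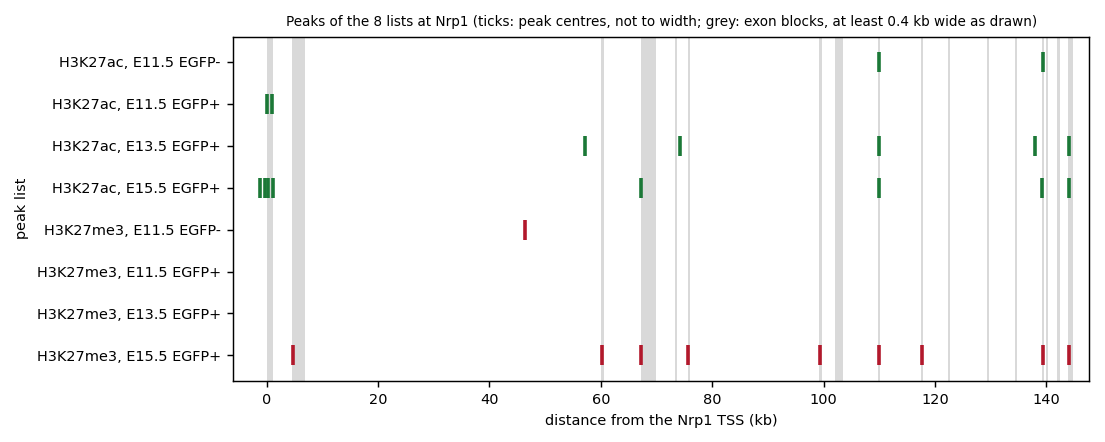
Peaks of the 8 lists (rows) at Nrp1 by distance from its TSS in kb (x axis); ticks are peak centres and grey bands exon blocks, drawn at least 0.4 kb wide. The 9 H3K27me3 ticks at E15.5 all fall on exons, and 4 H3K27ac ticks at E15.5 and both in Ebf2-EGFP- cells fall on the same exons, whereas the H3K27ac ticks near 0 kb are those of the TSS window.

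In the gene bodies, H3K27ac was found in 2, 28, 31 and 29 members (Ebf2-EGFP- and then by stage), against 4.92%, 56.6%, 68.8% and 56.5% of all genes. H3K27me3 was found in 30, 10, 14 and 4, against 56.8%, 14.1%, 15.7% and 2.97%. The members are long, with a median of 40.2 kb against 17.4 kb. Genes at least as long as the shortest member, whose median of 32.7 kb is still below that of the members, gave 6.58%, 68.1%, 80.2% and 68% for H3K27ac and 68.3%, 19%, 20% and 4.09% for H3K27me3. The intervals of the members were 0.791 to 21.4%, 74.2 to 98.0%, 88.8 to 100% and 78.6 to 99.2% for H3K27ac, the last 3 above both backgrounds. For H3K27me3 they were 83.3 to 99.9%, 16.7 to 51.4%, 27.3 to 64.0% and 3.63 to 29.8%; at E11.5 and E15.5 in Ebf2-EGFP+ cells these lay above all genes but included the share of the long ones. The numbers of body peaks were 3, 96, 239 and 70 for H3K27ac and 127, 17, 22 and 12 for H3K27me3. Per 1000 peaks of the list these were 2.16, 2.59, 2.32 and 2.71, and 2.59, 2.66, 3.27 and 8.34; in the last value 9 of the 12 peaks were the exon peaks of Nrp1.

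Among the 3 genes with most H3K27ac body peaks at each Ebf2-EGFP+ stage were receptors, Sema5b and Sema6d. At E13.5 these were Plxna4 with 27, Sema5b with 19 and Plxnd1 with 17. In Plxna4, 21 of the 27 touched no exon, and the gene had 2 at E11.5 and 3 at E15.5. At E11.5 Plxna1 had 10, Sema5b 8 and Plxnd1 7. At E15.5 Nrp1 had 6, of which 4 were the distal exon peaks above and 2 lay within 5 kb of the TSS, and Plxna1 and Sema6d had 5 each. Sema6d had 1 at E11.5 and 7 at E13.5. The third peak of the Ebf2-EGFP- H3K27ac list, beside the 2 in Nrp1 exons, was an intronic peak of 170 bp in Plxna4.

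Some intronic peaks lay in repeats, counted where 50% or more of the bases were in lower case in the reference. Of the intronic member peaks these were 3 of 27, 17 of 103 and 1 of 13 for H3K27ac by stage and 11 of 46 for H3K27me3 in Ebf2-EGFP- cells. Of the TSS-window peaks of the same lists they were 0 of 41, 1 of 64, 0 of 46 and 0 of 45, and of all peaks of these lists 13%, 20.3%, 9.6% and 20.4%. Class 3 genes on chromosome 5 held many of them. In Sema3c all 3 H3K27me3 body peaks of Ebf2-EGFP- cells, at 34.5 to 35.4 kb, lay wholly in repeats, and so did the H3K27ac peaks there at E11.5 (569 bp) and E13.5 (234 bp). In Sema3d an H3K27me3 peak of 259 bp in Ebf2-EGFP- cells and H3K27ac peaks of 341 and 334 bp at E11.5 and E13.5 shared 1 place at 166 kb, wholly in repeats. The intronic peaks of Sema3e were of the same kind. Of the 127 H3K27me3 body peaks of Ebf2-EGFP- cells at members, 71 overlapped an H3K27ac peak of some Ebf2-EGFP+ stage (55.9%, against 52.1% over all genes): 10 of the 11 in repeats and 61 of the other 116 (52.6%).

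**Figure D5:**
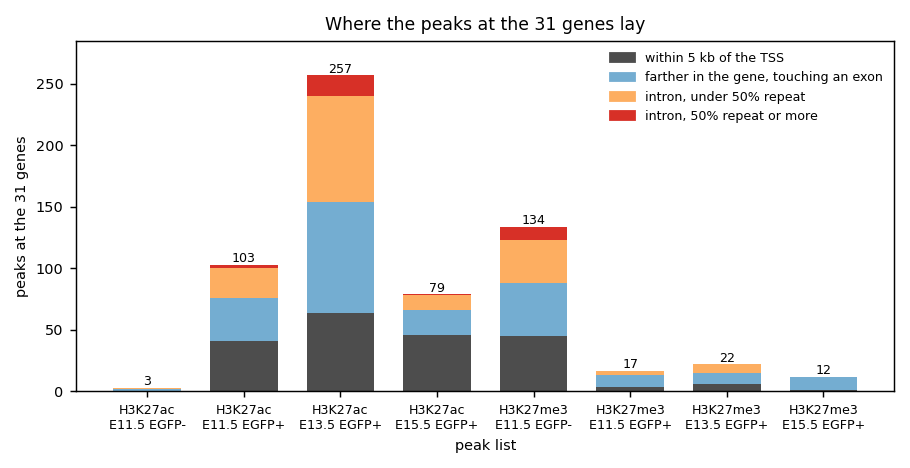
Number of peaks at the 31 genes (y axis) in each list (x axis), split by place: within 5 kb of the TSS, farther in the gene and touching an exon, intronic, and intronic with 50% or more repeat bases. In the H3K27me3 list at E15.5, 11 of the 12 peaks touch an exon away from the TSS; repeats appear among the intronic peaks of the longer lists.

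The promoters, taken as 250 bp upstream to 50 bp downstream of the TSS, were rich in CpG. Members had a median of 18 CpG sites and 64.3% GC, against 11 and 55% over all genes. The 21 members with H3K27ac at all 3 Ebf2-EGFP+ stages (67.7% of members and 33.1% of all genes) had a median of 22 CpG sites, from 2 at Plxna2 to 41 at Plxna1. The other 10 had a median of 12.5, and the 4 with H3K27ac at no or 1 stage, Sema3a, Sema3d, Sema3e and Plxnb3, had 10, 14, 11 and 3. This split was not made over all genes, so it does not show a trait particular to the members. The motif of EBF factors (TCCC, any 2 bases, then GGGA) was found in 1 member promoter (Plxnb1), or 3.23%, against 0.994% of all promoters. Searched on both strands, the E-box letters CAGATG were in 2 and CAGCTG in 5 member promoters, against 15.2% and 15.6% of all, and the homeodomain letters TAATTA in 1 (Sema3c), against 5.3%.

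Ligands and receptors were set side by side in 19 known pairs. In Ebf2-EGFP- cells no pair had H3K27ac at both partners, and in Ebf2-EGFP+ cells 11, 15 and 14 did by stage. The receptor alone had it in 7, 2 and 4 pairs, and the ligand alone in 0, 0 and 1, the last being Sema5a with Plxnb3 at E15.5. Pairs share genes, so they are not independent, and a few genes set these counts: Sema3a and Sema3e were the ligands of both such pairs at E13.5 and of 3 of the 4 at E15.5, with Sema3d in the other. Counted once each, 8, 11 and 11 of the 14 ligands in the pairs and 10 at every stage of the 11 receptors had H3K27ac (57.1%, 78.6% and 78.6%, and 90.9%), against the 49.9%, 60.9% and 52.3% of all genes. The difference between ligands and receptors was not tested.

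Another 40 genes of the pathway (co-receptors and adhesion partners, collapsin response mediator proteins, Mical enzymes, small GTPases and their regulators) carried H3K27ac at 4, 34, 35 and 34 starts, first in Ebf2-EGFP- cells and then by stage, and H3K27me3 at 30, 4, 5 and 0. In percent these were 10, 85, 87.5 and 85 for H3K27ac and 75, 10, 12.5 and 0 for H3K27me3, with the same backgrounds as above.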

How the data were processed

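ChIP-seq of H3K27ac and H3K27me3 was performed on FACS-sorted cortical cells. Per the study's methods and the submitters' processing notes, the authors aligned reads to mm10 with Bowtie 1.1.2 on Galaxy, allowing 3 mismatches, and called peaks with MACS at a p-value of 1e-05. The MACS version, the use of input and the pooling of replicates are not given in the sources used here. The score the authors deposited was 0 for every peak, so no height was used. Starts were read as counted from 0 and positions are printed from 1. No peak ran past a chromosome end of GRCm38.

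Genes were the 21938 protein-coding genes of GENCODE M21 on chromosomes 1 to 19, X and Y. A peak counted with an overlap of 1 bp or more, within 5 kb of the TSS, the window of the study, or in the gene body. Calls were computed with Python 3.11.15, numpy 2.4.6 and scipy 1.17.1, and tested on simulated data. Sequences, CpG sites and repeats (lower case) came from the RefSeq copy of GRCm38. The members and lists were chosen with earlier results of these data known. All members were accounted for by state; more values were given for members with H3K27me3 at the TSS in an Ebf2-EGFP+ list, with H3K27ac at fewer than 3 stages, with most H3K27ac body peaks, and for Nrp1, Nrp2, Plxna4 and Sema3a. Other windows, starts, widths, equal numbers of peaks, merging, and peaks without exons or repeats were tried as alternatives.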

Additional observations from a re-analysis of the deposited data

How the results depend on the processing

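Of 136 alternative values, 87 were within 1.5 times the reported count. H3K27ac at the TSS in the Ebf2-EGFP+ lists stayed within it in 19 of 24. Leaving out peaks in repeats (chosen after seeing the data) moved no count beyond it. Both tallies include settings that could hardly change a count, so they do not measure robustness. Merging nearby peaks, and keeping only peaks nearest to the member's own TSS (also chosen after seeing the data), changed none. The cut to the widest peaks leaves the shortest list of a mark as it is. Values are given in the order Ebf2-EGFP-, E11.5, E13.5, E15.5, naming only those that moved. With peaks of at least 300 bp, TSS counts were 14 and 12 for H3K27ac at E11.5 and E13.5 (28.9% and 23% of all genes), and 12, 0, 0 and 0 for H3K27me3 (16.8%, 0.242%, 0.62% and 0.128%); the H3K27ac intervals then included the background, and that of the 12 (21.9 to 57.8%) did not. With each list cut to its widest peaks (1386 for H3K27ac, 1438 for H3K27me3), TSS counts were 5, 2 and 4 for H3K27ac at the 3 stages and 2, 1 and 1 for H3K27me3 up to E13.5. Any annotated start gave 8, 10 and 2 for H3K27me3 at the 3 stages (9.27%, 13.1% and 1.78% of all genes), the first and second with intervals above the background. Without peaks wholly in exons (chosen after seeing the data), H3K27me3 fell to 3 at E13.5 (7.06% of all genes) and 0 at E15.5 (0.921%), where a window of 1 kb also gave 0 (0.451%).

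Gene body counts with peaks of at least 300 bp were 0 and 20 for H3K27ac in Ebf2-EGFP- cells and at E13.5, and 15, 1, 0 and 0 for H3K27me3. All genes gave 1.21% and 31.6%, and 21.7%, 0.748%, 0.775% and 0.141%. With the widest peaks they were 5, 2 and 4 for H3K27ac at the 3 stages (6.45%, 2.61% and 7.06% of all genes) and 3, 4 and 5 for H3K27me3 up to E13.5 (4.01%, 4.06% and 4.23%). With peaks that touch no exon they were 1 for H3K27ac in Ebf2-EGFP- cells (1.47%), 18 and 16 at E11.5 and E15.5 (24.1% and 16.7%), and 4, 9 and 0 for H3K27me3 at the 3 stages (8.04%, 7.77% and 2.1%). Without the 5 kb around the TSS, H3K27ac at E15.5 was 19 (21.8%).

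For the states, the widest peaks gave 2 H3K27me3 only in Ebf2-EGFP- cells, 5, 2 and 4 H3K27ac only at the 3 stages, 1 H3K27me3 only at E11.5 and at E15.5, and 0 with both at each stage. A window of 1 kb gave 1 H3K27me3 only and 2 with both at E11.5, and 0 with both at E15.5. These alternative states were not counted over all genes, so they do not show a change particular to the members.

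The choice of the stronger peaks by score could not be run, since every score is 0. No paired analysis was possible because each group has 1 peak list for all its libraries, so the replicates could not be compared or left out either. The length of a list limits what its absences show, most of all in the H3K27ac list of Ebf2-EGFP- cells, from 1 library, and the H3K27me3 list at E15.5.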
